A study of Saccharomyces cerevisiae with 15 samples.

Results

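The genes examined were 10 genes of glycogen synthesis and breakdown in the budding yeast Saccharomyces cerevisiae: GSY1, GSY2, GLC3, GLG1, GLG2, GAC1, PGM2, UGP1, GPH1 and GDB1. They were taken by name out of 5656 genes that had a probe set of their own on the Affymetrix YG-S98 array, and each of the 10 had 1 such probe set, so the rule of taking the brightest left nothing to choose. The list was chosen by function, but with the values of GSY1 against the empty vector for Pdr1-Cyc8 and of GLC3 for Pdr1-Sin3 already seen. The study asked what chimeric repressors made from the drug resistance regulator Pdr1 do to gene expression, and the glycogen genes were followed here through its 5 groups of 3 cultures, which the labels call biological replicates. The groups were cells expressing a Pdr1-Cyc8 fusion, cells expressing a Pdr1-Sin3 fusion, cells deleted for PDR1 that expressed Pdr1-Cyc8, cells deleted for PDR1, and cells with an empty vector. All cultures grew logarithmically in synthetic dextrose at 30 °C, and each gave 1 array. The sources used here do not give the strain background, the promoter behind the fusions or the parts of each protein they contain, and the labels of the deletion name no vector.

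Glycogen is a branched glucose polymer that yeast stores as growth slows and draws on when sugar runs out. Glycogenins start a chain on themselves, glycogen synthase extends it from UDP-glucose, and the branching enzyme adds side chains. Phosphorylase and the debranching enzyme take the polymer apart. The genes are generally held low in fast growth on glucose and induced together in stress and on the approach to stationary phase, mostly through stress response elements in their promoters. Cyc8 belongs to the Cyc8-Tup1 corepressor and Sin3 to a histone deacetylase complex.

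The labels were first checked on the genes they name. PDR1 stood at 9.07 with Pdr1-Cyc8, 8.67 with Pdr1-Sin3, 6.94 with Pdr1-Cyc8 in the deletion, 4.70 in the deletion and 9.08 with the empty vector, as group means of log2(signal + 16), the scale used throughout. CYC8 stood at 12.26 with Pdr1-Cyc8 and 11.58 with Pdr1-Cyc8 in the deletion, against 8.69 with the empty vector, and SIN3 stood at 11.45 with Pdr1-Sin3, against 8.21. Total signal ran from 6839487 to 7739820, but the deposited values already shared a trimmed mean of 500.5 to 500.7 per array. The totals are therefore no check on the arrays. Spike-in controls put the arrays in 2 sets: BioC minus BioB was 1.02 to 1.32 for Pdr1-Cyc8, the deletion and the empty vector (array set 1, 9 arrays), and -0.64 to -0.20 for the other groups (array set 2, 6 arrays). For comparisons that cross the sets, a group difference and a set difference cannot be told apart. A probe set without a listed gene also marked the deletion cultures, at 13.97 ± 0.17 (SD, n = 3) there and 4.48 ± 0.27 with Pdr1-Cyc8 in the deletion, against 4.23 ± 0.05 with the empty vector. Any other difference of the deletion strain cannot be told apart from the loss of PDR1. The groups deleted for PDR1 differ in this probe set too, so a strain difference cannot be told apart from the effect of the fusion in the deletion either.

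With either fusion in cells that kept PDR1, genes of chain extension, branching and debranching were higher than with the empty vector. Pdr1-Cyc8 raised 4 of the 10 genes, GSY1, GSY2, GLC3 and GDB1, where 0.464% of 9275 probe sets were called higher (limma across all probe sets, Benjamini-Hochberg adjusted p under 0.05). Pdr1-Sin3 raised 6 of 10, the same 4 together with PGM2 and GAC1, where 2.65% of probe sets were called higher. The first count includes GSY1 and the second GLC3, the differences already seen, and without them the counts were 3 of 9 and 5 of 9. The median log2 difference over the 10 genes was 1.21 with Pdr1-Cyc8, against -0.03 over all probe sets, and 1.44 with Pdr1-Sin3, against -0.01. Without GSY1 the median with Pdr1-Cyc8 was 1.05, and without GLC3 that with Pdr1-Sin3 was 1.19. With either fusion 0 of 10 fell, where 0.248% of probe sets were called lower with Pdr1-Cyc8 and 1.06% with Pdr1-Sin3, and 10 of 10 lay above 0 with Pdr1-Cyc8 and 9 of 10 with Pdr1-Sin3. For 7 genes the arrays with Pdr1-Cyc8 all lay above the empty vector, where 7.85% of probe sets did so, and for 7 genes those with Pdr1-Sin3, where 14.7% did so. The counts above 0 and those without overlap include the GSY1 and GLC3 differences already seen. The comparisons share the empty vector arrays, so they are not independent of each other. The 2 differences already seen when the genes were chosen are given below as descriptions without a p. An array measures a culture as a whole, so fewer cells with a transcript and less transcript per cell cannot be told apart.

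**Figure D1:**
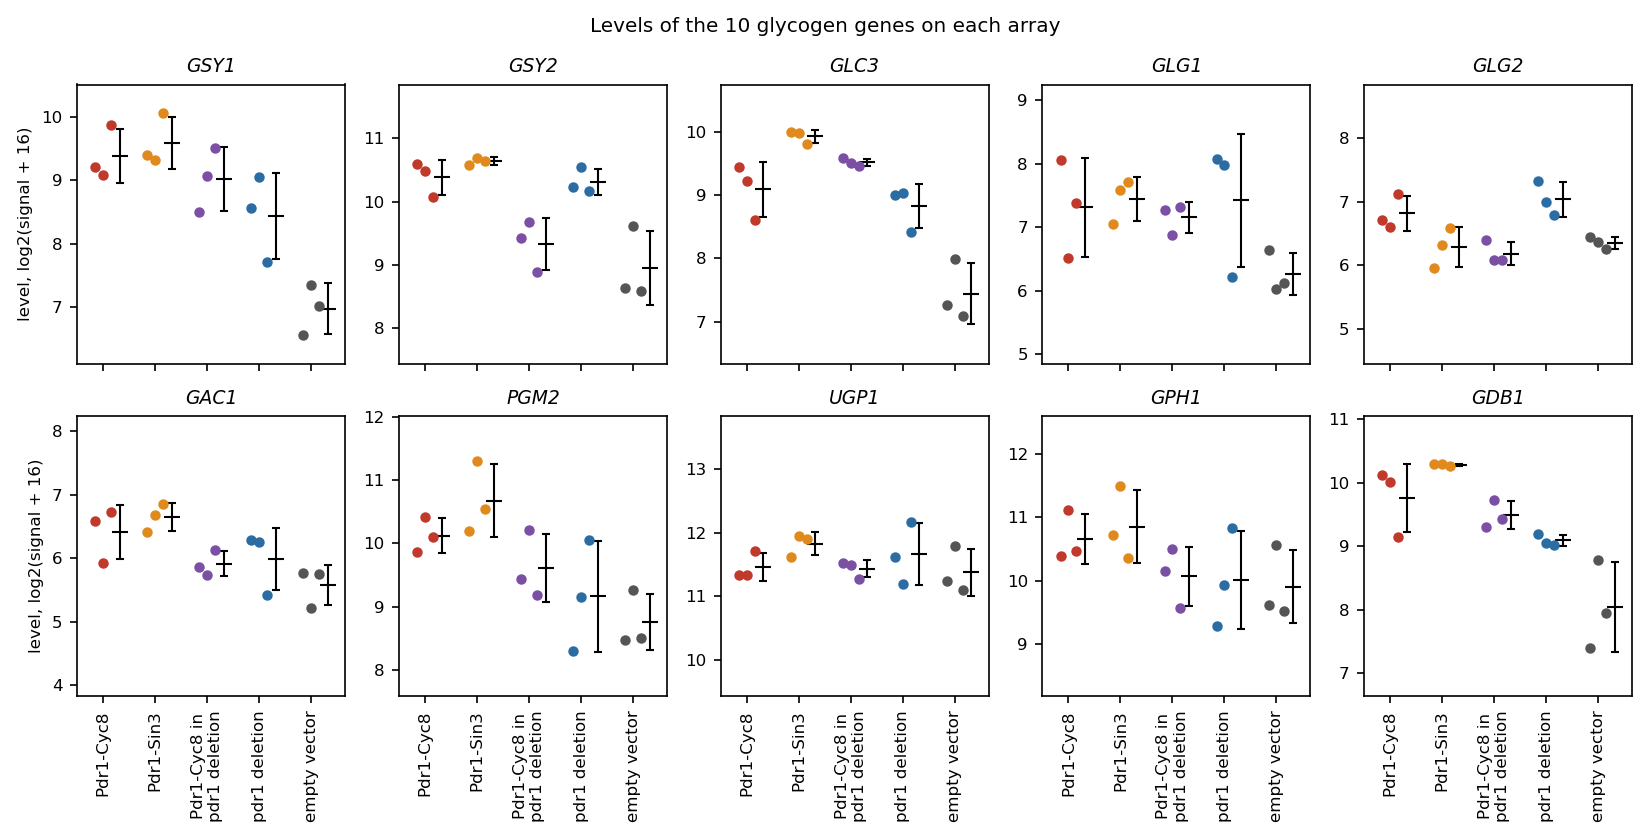
Levels of the 10 genes, log2(signal + 16), on each of 15 arrays, with 1 point per culture and the group mean ± SD as a bar beside the points. Every panel spans the same number of log2 units. GSY1 and GLC3 lay above the empty vector arrays in all other groups, while every group of UGP1 and GPH1 overlapped the empty vector arrays.

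In the deletion, 0 of 10 genes were called against the empty vector by limma, where 0.0323% of probe sets were called in either direction, although 6 of 10 had an unadjusted p under 0.05, as had 13.7% of probe sets. All 10 lay above 0, with a median of 0.87 against 0.00 over all probe sets, and 5 of 10 had groups that did not overlap, higher in the deletion, where 6.42% of probe sets did so. With Pdr1-Cyc8 in the deletion, 3 of 10 rose against the empty vector, GSY1, GLC3 and GDB1, where 4.47% of probe sets were called higher. Against the deletion alone, Pdr1-Cyc8 in the deletion raised 0 of 10, where 10.3% of probe sets were called higher, and lowered 2, GSY2 and GLG2, where 8.70% were called lower. With 10 genes, 2 calls lie too near that share to be read as a result about the group. The plot of differences from the empty vector shows these values with their intervals.

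**Figure D2:**
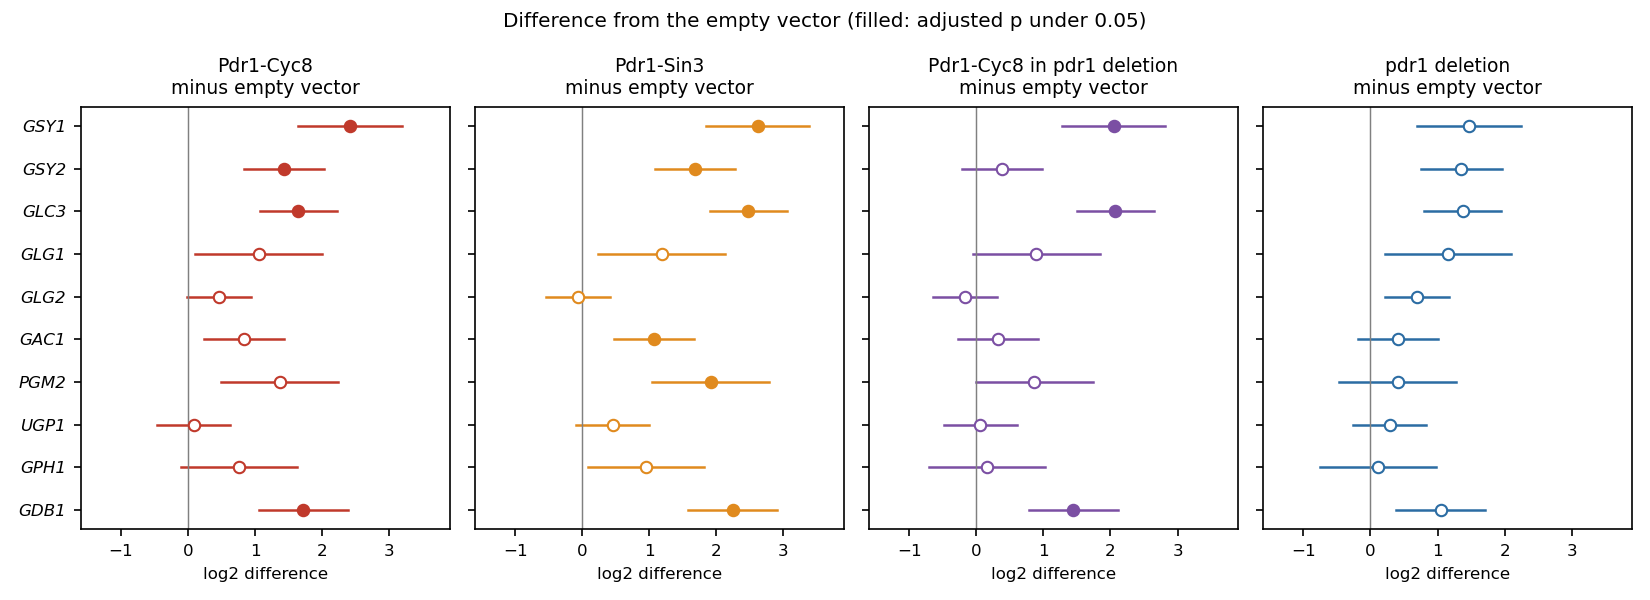
Log2 difference of each gene from the empty vector in 4 groups, with the 95% interval of the limma fit. Filled points passed an adjusted p under 0.05. GSY1, GLC3 and GDB1 are filled in the 3 groups with a fusion, GSY2 in the groups that kept PDR1 and carried a fusion, and no point is filled for the deletion. The GSY1 point for Pdr1-Cyc8 and the GLC3 point for Pdr1-Sin3 are descriptions, since these differences were already seen when the genes were chosen.

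GSY1 encodes the minor of the glycogen synthases of growing yeast. Its level was 9.21, 9.09 and 9.87 with Pdr1-Cyc8 and 9.39, 9.32 and 10.07 with Pdr1-Sin3. It was 8.50, 9.07 and 9.51 where the deletion carried Pdr1-Cyc8, 8.56, 9.06 and 7.71 in the deletion, and 6.56, 7.36 and 7.01 with the empty vector. All 12 arrays of the other groups lay above the 3 of the empty vector. In the deposited signals this was 685 ± 193 with Pdr1-Cyc8, 749 ± 222 with Pdr1-Sin3, 552 ± 172 with Pdr1-Cyc8 in the deletion and 366 ± 171 in the deletion, against 107 ± 36.6 with the empty vector (SD, n = 3 each). GSY1 was 2.41 higher with Pdr1-Cyc8 on the log2 scale (SE 0.36, 95% interval 1.64 to 3.18), which is 5.32-fold on the log2(signal + 16) scale. It rose by 2.62 with Pdr1-Sin3 (SE 0.36, limma adjusted p = 0.00131) and by 2.05 with Pdr1-Cyc8 in the deletion (SE 0.36, adjusted p = 0.00324). In the deletion it was 1.47 higher without passing (adjusted p = 0.156). Ordered by mean, the groups ran Pdr1-Sin3, Pdr1-Cyc8, Pdr1-Cyc8 in the deletion, deletion and empty vector. Each neighbour in that order overlapped the next except the deletion and the empty vector.

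GSY2 encodes the major glycogen synthase. It lay at 10.60, 10.48 and 10.07 with Pdr1-Cyc8 and 10.58, 10.69 and 10.64 with Pdr1-Sin3. It was 9.43, 9.68 and 8.89 where the deletion carried Pdr1-Cyc8, 10.22, 10.54 and 10.16 in the deletion, and 8.63, 9.62 and 8.60 with the empty vector. The Pdr1-Cyc8, Pdr1-Sin3 and deletion cultures stood together above all others, and Pdr1-Cyc8 in the deletion overlapped the empty vector. GSY2 rose by 1.43 with Pdr1-Cyc8 (SE 0.28, adjusted p = 0.0261) and by 1.69 with Pdr1-Sin3 (SE 0.28, adjusted p = 0.00371). The difference was 1.36 in the deletion (adjusted p = 0.137) and 0.38 with Pdr1-Cyc8 in the deletion (adjusted p = 0.454, 95% interval -0.21 to 0.98). In order of mean, the groups ran Pdr1-Sin3, Pdr1-Cyc8, deletion, Pdr1-Cyc8 in the deletion and empty vector, and only the step between the deletion and Pdr1-Cyc8 in the deletion was free of overlap.

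GLC3, the branching enzyme, lay at 9.44, 9.21 and 8.61 with Pdr1-Cyc8 and 9.99, 9.97 and 9.81 with Pdr1-Sin3. It was 9.58, 9.51 and 9.46 where the deletion carried Pdr1-Cyc8, 9.002, 9.04 and 8.42 in the deletion, and 7.26, 7.99 and 7.09 with the empty vector. All 12 arrays again stood above the empty vector, and the cultures of array set 2 were the highest and the most alike. GLC3 rose by 1.64 with Pdr1-Cyc8 (SE 0.27, adjusted p = 0.00871) and by 2.07 with Pdr1-Cyc8 in the deletion (SE 0.27, adjusted p = 0.00024). It was 2.48 higher with Pdr1-Sin3 (SE 0.27, 95% interval 1.91 to 3.05) and 1.38 higher in the deletion (adjusted p = 0.123).

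The glycogenins GLG1 and GLG2, which prime the chain, had dim probe sets, at percentiles 32.9 and 34.5 of all probe sets with the empty vector. GLG1 lay at 8.06, 6.51 and 7.38 with Pdr1-Cyc8 and 7.06, 7.58 and 7.71 with Pdr1-Sin3. It was 7.27, 6.88 and 7.33 where the deletion carried Pdr1-Cyc8, 8.07, 7.98 and 6.22 in the deletion, and 6.64, 6.03 and 6.13 with the empty vector. It passed in none of the comparisons, with 1.05 for Pdr1-Cyc8 (adjusted p = 0.443) and 1.19 for Pdr1-Sin3 (adjusted p = 0.153), and its cultures differed by more than 1 log2 unit within the Pdr1-Cyc8 and deletion groups. GLG2 lay at 6.71, 6.61 and 7.13 with Pdr1-Cyc8 and 5.96, 6.31 and 6.58 with Pdr1-Sin3. It was 6.39, 6.07 and 6.08 where the deletion carried Pdr1-Cyc8, 7.33, 6.997 and 6.78 in the deletion, and 6.43, 6.36 and 6.25 with the empty vector. With Pdr1-Sin3 the difference of GLG2 from the empty vector was -0.06 (adjusted p = 0.917, 95% interval -0.54 to 0.41). Whether GLG1 and GLG2 differed in response was not tested.

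PGM2, the major phosphoglucomutase, and UGP1, UDP-glucose pyrophosphorylase, make the UDP-glucose that the synthases use. PGM2 lay at 9.86, 10.42 and 10.10 with Pdr1-Cyc8 and 10.19, 11.30 and 10.54 with Pdr1-Sin3. It was 9.44, 10.22 and 9.19 where the deletion carried Pdr1-Cyc8, 8.30, 9.15 and 10.05 in the deletion, and 8.48, 9.27 and 8.52 with the empty vector. It rose by 1.92 with Pdr1-Sin3 (SE 0.41, adjusted p = 0.0175). With Pdr1-Cyc8 it was 1.37 higher without overlap but did not pass (adjusted p = 0.214), and in the deletion its cultures spanned the range of the empty vector and beyond (0.41, adjusted p = 0.714). UGP1 was among the brightest probe sets and moved least: its group means were 11.46 ± 0.22 with Pdr1-Cyc8, 11.83 ± 0.18 with Pdr1-Sin3, 11.43 ± 0.13 with Pdr1-Cyc8 in the deletion, 11.66 ± 0.49 in the deletion and 11.38 ± 0.37 with the empty vector (SD, n = 3 each). Its interval for Pdr1-Cyc8 against the empty vector was -0.46 to 0.63.

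GAC1, a subunit that brings the phosphatase Glc7 to glycogen synthase, was the dimmest, with deposited signals of 20.7 to 96.0. It lay at 6.42, 6.69 and 6.86 with Pdr1-Sin3, against 5.77, 5.21 and 5.76 with the empty vector, and rose by 1.07 (SE 0.28, adjusted p = 0.0466). Its other groups lay between these, at 6.41 ± 0.43 with Pdr1-Cyc8, 5.91 ± 0.20 with Pdr1-Cyc8 in the deletion and 5.99 ± 0.50 in the deletion (SD, n = 3 each). The GAC1 call was lost with each of the 6 arrays left out in turn (adjusted p = 0.0727 to 0.181), and with the values as deposited, median centring, a pseudocount of 1 and the replicate block (0.0559, 0.0539, 0.0706 and 0.0652).

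The breakdown enzymes differed in what they did. GDB1, the debranching enzyme, lay at 10.12, 10.01 and 9.14 with Pdr1-Cyc8 and 10.29, 10.30 and 10.27 with Pdr1-Sin3. It was 9.29, 9.73 and 9.43 where the deletion carried Pdr1-Cyc8, 9.19, 9.05 and 9.02 in the deletion, and 7.39, 8.78 and 7.95 with the empty vector. Its 12 arrays outside the empty vector group were all above that group. GDB1 rose by 1.72 with Pdr1-Cyc8 (SE 0.31, adjusted p = 0.0172), by 2.24 with Pdr1-Sin3 (SE 0.31, adjusted p = 0.00131) and by 1.45 with Pdr1-Cyc8 in the deletion (SE 0.31, adjusted p = 0.0102). GPH1, glycogen phosphorylase, lay at 10.39, 11.11 and 10.47 with Pdr1-Cyc8 and 10.72, 11.48 and 10.35 with Pdr1-Sin3. It was 10.14, 10.49 and 9.56 where the deletion carried Pdr1-Cyc8, 9.29, 9.93 and 10.82 in the deletion, and 9.62, 10.56 and 9.53 with the empty vector. Every group of GPH1 overlapped the empty vector, and its largest difference was 0.95 with Pdr1-Sin3 (adjusted p = 0.219, 95% interval 0.08 to 1.82).

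Single arrays decided several of the calls with Pdr1-Cyc8. Besides GSY1, which was already seen, 0 genes remained called when empty vector replicate 1, empty vector replicate 3 or Pdr1-Cyc8 replicate 1 was left out, and 1 without Pdr1-Cyc8 replicate 2. GSY2 lost its call without these 4 arrays (adjusted p = 0.146, 0.123, 0.156 and 0.0916, in that order), as did GDB1 (0.111, 0.0693, 0.102 and 0.07), and GLC3 lost it without the first 3 (0.0553, 0.0525 and 0.0679). GSY2 also lost it with a pseudocount of 1 (0.0631), and GSY2, GLC3 and GDB1 lost it in fits of only the groups compared (0.187, 0.137 and 0.216) or only the first array set (0.145, 0.0947 and 0.155). For Pdr1-Sin3, GSY1, GSY2 and GDB1 kept their calls in all 16 alternatives, while the PGM2 call ended when empty vector replicates 1 or 3 or Pdr1-Sin3 replicate 2 were left out (adjusted p = 0.0676, 0.0572 and 0.0808). GSY1, GLC3 and GDB1 with Pdr1-Cyc8 in the deletion against the empty vector were likewise called in all 16. The count in the deletion depended on 1 of its cultures: without deletion replicate 3, 5 of 10 genes were called higher. They were GSY1 (1.83, adjusted p = 0.00688), GSY2 (1.43, adjusted p = 0.0137), GLC3 (1.58, adjusted p = 0.00456), GLG1 (1.76, adjusted p = 0.00967) and GLG2 (0.82, adjusted p = 0.0496). Without empty vector replicate 2, 2 were called, GSY2 and GLC3 (adjusted p = 0.0214 and 0.0265). The shares of all probe sets called in these fits are not given, so neither count is read as a result about the 10 genes.

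The paralogues GSY1 and GSY2 were compared by the difference of their log2 levels on the same array, so that a shift common to both cancels. Signals of different probe sets are not on a common scale, so only changes of this difference between groups are read. GSY1 minus GSY2 was -1.39, -1.40 and -0.20 with Pdr1-Cyc8 and -1.19, -1.38 and -0.57 with Pdr1-Sin3. It was -0.93, -0.62 and 0.62 where the deletion carried Pdr1-Cyc8, -1.66, -1.48 and -2.44 in the deletion, and -2.08, -2.26 and -1.58 with the empty vector. The 9 arrays with a fusion were all above the 6 without one, which is a description, since the rise of GSY1 with Pdr1-Cyc8 was already seen. Array set 1 holds all 6 without a fusion, and array set 2 holds the fusion arrays other than those of Pdr1-Cyc8 with PDR1. Relative to GSY2, GSY1 was 0.98 higher with Pdr1-Cyc8 and 0.93 higher with Pdr1-Sin3 than with the empty vector, and 1.55 higher with Pdr1-Cyc8 in the deletion than in the deletion. The value for Pdr1-Cyc8 with PDR1 is a description for the same reason and is given without a p. The others each had an exact two-sided permutation p of 0.1, the smallest that 3 against 3 arrays allow. After adjustment over 5 comparisons this permutation p was 0.167. The comparisons of Pdr1-Sin3 with the empty vector and of Pdr1-Cyc8 in the deletion with the deletion cross the array sets. A set difference cannot be told apart from these values.

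In the deletion against the empty vector the paralogues' difference moved by 0.11 (exact permutation p = 0.9), and its sign turned without empty vector replicate 2 (-0.03) or deletion replicate 2 (-0.08). Between Pdr1-Cyc8 in the deletion and Pdr1-Sin3, within array set 2, it was 0.74 (exact permutation p = 0.3). Over both Pdr1-Cyc8 effects, with and without PDR1, the mean was 1.27, given as a description because the rise of GSY1 was already known, and 1 of the 2 effects crosses the array sets. Whether the probes of one paralogue bind transcripts of the other was not tested.

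**Figure D3:**
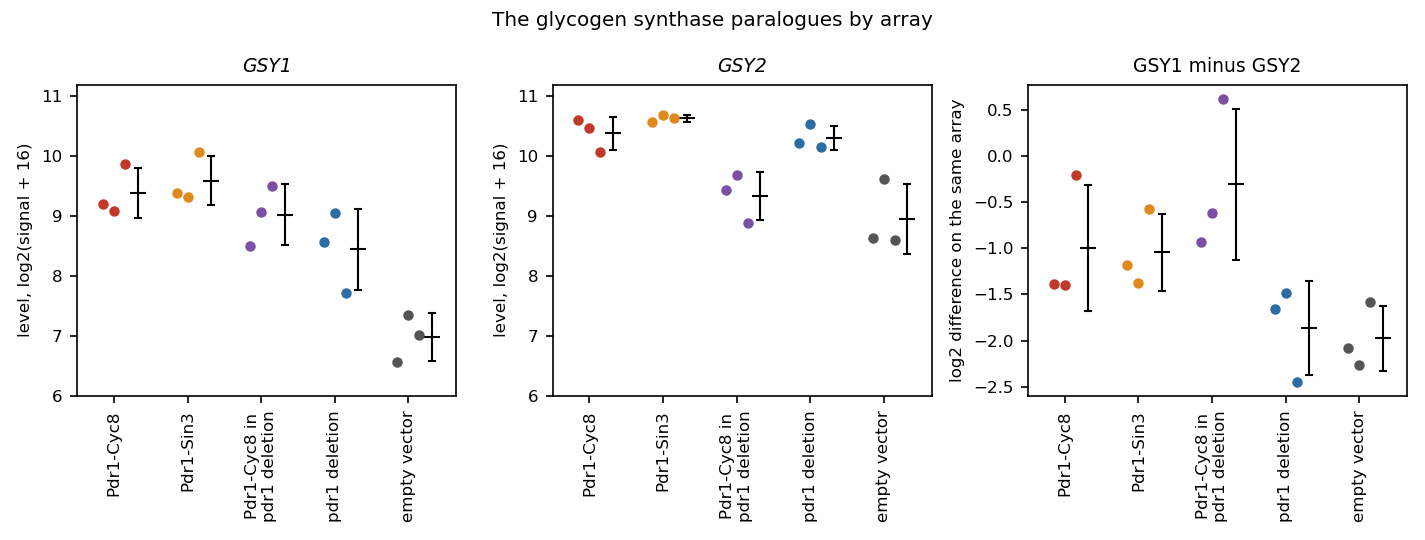
Levels of GSY1 and GSY2, log2(signal + 16), and the difference GSY1 minus GSY2 on each array, with the group mean ± SD as a bar beside the points. The 9 arrays with a fusion lie between -1.40 and 0.62 in the right panel, above the 6 arrays without one, which lie between -2.44 and -1.48. All 6 without a fusion are of array set 1, while Pdr1-Sin3 and Pdr1-Cyc8 in the deletion are of array set 2.

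Whether Pdr1-Cyc8 acted alike with and without PDR1 was tested as an interaction, the effect in the deletion minus the effect with PDR1. All 10 values were below 0, with a median of -1.13 against 0.02 over all probe sets, and 3 of 10 passed, where 5.30% of probe sets were called lower. One of the 3 is GSY1, whose effect with PDR1 was already seen, and without it 2 of 9 passed, with a median of -0.95. The pattern was not particular to these genes. Of 7 genes of trehalose metabolism 0 lay above 0 and 3 were called lower, with a median of -1.12, and of 25 stress genes 5 were called lower. The interaction crosses the array sets and holds any strain difference between the groups deleted for PDR1, and these cannot be told apart from it. GSY2 was 0.97 lower with the fusion in the deletion (SE 0.28, adjusted p = 0.0257) but higher with PDR1, and the effects differed by -2.41 (SE 0.40, adjusted p = 0.00344). GLG2 was 0.86 lower in the deletion (SE 0.22, adjusted p = 0.0166), and its effects differed by -1.32 (SE 0.32, adjusted p = 0.0189). For GSY1 the effects differed by -1.83 (SE 0.51, 95% interval -2.92 to -0.74), given as a description, and its effect in the deletion was 0.58 (adjusted p = 0.286). For GLC3, whose deletion cultures with and without the fusion did not overlap (0.70, adjusted p = 0.0838), the interaction of -0.95 did not pass (adjusted p = 0.116).

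These calls leaned on few arrays. When the 3 arrays with the lowest ribosome assembly genes were left out (replicates 1 and 2 of the deletion, and replicate 1 of Pdr1-Cyc8), 0 of 10 interactions passed, with GSY2 at -2.15 (adjusted p = 0.0937), GLG2 at -1.12 (adjusted p = 0.213) and GSY1 at -1.19. That fit has 1 deletion array, whose spread is taken from the remaining groups. Without deletion replicate 3, 6 passed, a count given without the share of all probe sets in that fit and not read as a result about the genes. The fall of GSY2 in the deletion background was lost without deletion replicates 1 or 2 or Pdr1-Cyc8-in-deletion replicates 1 or 3 (adjusted p = 0.0526, 0.095, 0.0551 and 0.108), and that of GLG2 when replicate 1 of the deletion or replicates 2 or 3 of Pdr1-Cyc8 in the deletion were left out (0.0681, 0.0547 and 0.054).

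**Figure D4:**
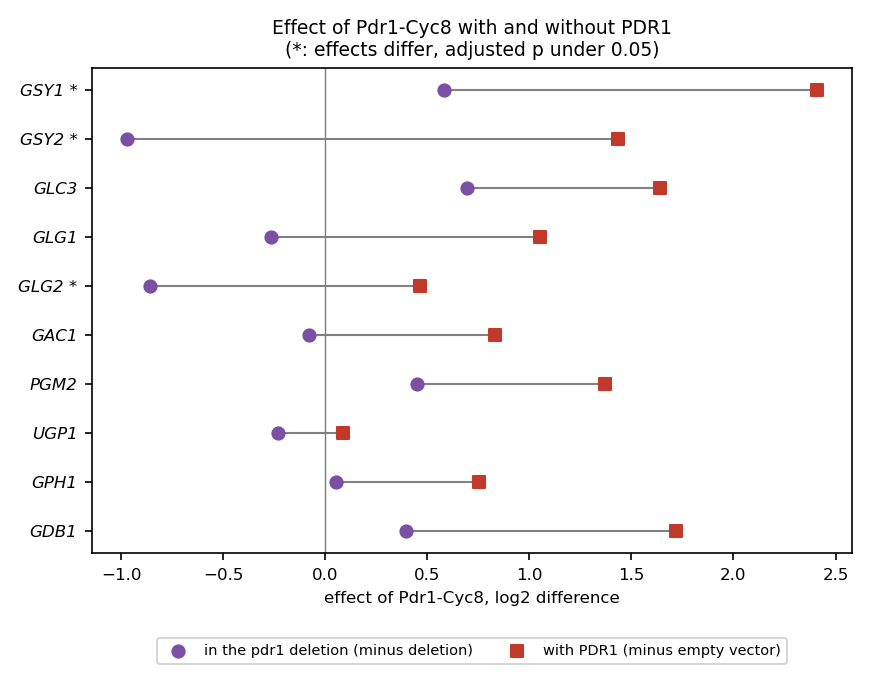
Effect of Pdr1-Cyc8 on each gene as a log2 difference, in the deletion (circles, against the deletion alone) and with PDR1 (squares, against the empty vector). The circle lies to the left of the square for all 10 genes, and an asterisk marks an adjusted p under 0.05 for the difference (GSY1, GSY2 and GLG2), where GSY1 was chosen with its effect with PDR1 already seen.

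The fusions were also compared with each other. The comparison of Pdr1-Cyc8 with Pdr1-Sin3 crosses the array sets, so a set difference cannot be told apart from a difference of the fusions. With Pdr1-Cyc8 against Pdr1-Sin3, 0 of 10 genes passed by limma, where 2.72% of probe sets were called, and 2 had an unadjusted p under 0.05, as had 18.2% of probe sets. The largest difference was GLC3 at -0.84 without overlap (SE 0.27, adjusted p = 0.112), and for GSY1 the 95% interval was -0.98 to 0.57. Within array set 2, Pdr1-Cyc8 in the deletion was set against Pdr1-Sin3, and GSY2 was the 1 of 10 to pass, where 1.70% of probe sets were called lower. It fell by 1.30 (SE 0.28, adjusted p = 0.0228), while GSY1 (-0.57, adjusted p = 0.46) and GLC3 (-0.41, adjusted p = 0.48) did not pass. The GSY2 call was lost without Pdr1-Cyc8-in-deletion replicates 1 or 3 (adjusted p = 0.0682 and 0.0949) or without any of the Pdr1-Sin3 arrays (0.0774, 0.0617 and 0.0913).

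Neighbouring genes of the pathway were read from lists. The lists, those of stress and ribosome assembly genes included, were chosen with earlier results of these data known. Of 7 trehalose genes, which draw on the same UDP-glucose or break trehalose down, 2 rose with Pdr1-Cyc8, 4 with Pdr1-Sin3, 3 with Pdr1-Cyc8 in the deletion and 0 in the deletion, against the empty vector, and none fell. The shares of all probe sets called higher were 0.464%, 2.65% and 4.47% in the groups with a fusion, in that order. TSL1, a regulatory subunit of trehalose synthase, rose by 1.54 with Pdr1-Cyc8 (adjusted p = 0.0209), 2.68 with Pdr1-Sin3 (adjusted p = 0.000183) and 1.40 with Pdr1-Cyc8 in the deletion (adjusted p = 0.00783). The median over the list was 1.02 with Pdr1-Cyc8, 1.12 with Pdr1-Sin3, 0.82 with Pdr1-Cyc8 in the deletion and 0.91 in the deletion. Of 14 regulators of glycogen, 0 rose with Pdr1-Cyc8 and 2 with Pdr1-Sin3: GLC7, the catalytic phosphatase (1.11, adjusted p = 0.0112), and IGD1, an inhibitor of Gdb1 (1.52, adjusted p = 0.0261). PSK1, a PAS kinase that phosphorylates Ugp1 and glycogen synthase, was the 1 regulator to fall with Pdr1-Cyc8 in the deletion against the deletion (-1.05, adjusted p = 0.00287), and 1 of 14 is no more than the 8.70% of all probe sets called lower. Of 5 measured genes that make or convert hexose phosphates, 1 rose with Pdr1-Cyc8, 2 with Pdr1-Sin3, 2 with Pdr1-Cyc8 in the deletion and 0 in the deletion, against the empty vector. The hexokinase HXK1 rose by 1.78 with Pdr1-Cyc8 (adjusted p = 0.0345), 2.51 with Pdr1-Sin3 (adjusted p = 0.00174) and 2.31 with Pdr1-Cyc8 in the deletion (adjusted p = 0.00149). The glucokinase GLK1 rose by 1.55 with Pdr1-Sin3 (adjusted p = 0.0186) and by 1.19 with Pdr1-Cyc8 in the deletion (adjusted p = 0.0379). Against the deletion alone, Pdr1-Cyc8 in the deletion raised HXK1 by 2.18 (adjusted p = 0.00147) and the hexokinase HXK2 by 1.47 (adjusted p = 0.033), where 10.3% of probe sets were called higher.

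TSL1 lost its Pdr1-Cyc8 call in 7 of 17 alternatives (adjusted p up to 0.117) and HXK1 in 9 (up to 0.257), and ATH1, the vacuolar acid trehalase, in 10 (up to 0.192). Where the deletion carried Pdr1-Cyc8, set against the empty vector, ATH1 lost its call in 8 of 16 (up to 0.135), GLK1 in 10 (up to 0.136) and TPS1 in 1 (0.0518). With Pdr1-Sin3, NTH1, a neutral trehalase, lost it in 6 of 16 (up to 0.117) and GLK1 in 4 (up to 0.0713). Against the deletion, HXK2 lost it in 7 of 16 (up to 0.665) and HXK1 in 1 (0.119). IGD1 lost its call in 6 of 16 (up to 0.107), GLC7 in 3 of 16 (up to 0.061) and PSK1 in 1 of 16 (0.0992, with the arrays of lowest ribosome assembly genes left out).

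The genes most like each synthase were sought among 3915 others with a mean level of at least 7, by Pearson's r over the 15 arrays. The 15 arrays come from 5 groups and are not independent points, so r is a description. Nearest to GSY1 were DCS1 (0.91), TPS1 (0.90), AIM17 (0.89), IGD1 (0.85) and GLC3 (0.85), and nearest to GSY2 were GAD1 (0.91), ATG19 (0.90), SSE2 (0.89), SDH6 (0.88) and TFS1 (0.87). GSY1 and GSY2 had r = 0.65 with each other, which put GSY2 at rank 129 for GSY1. GDB1 was near to both, at ranks 10 and 21, while UGP1 was far from GSY1, with r = 0.20 and rank 1210.

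Gene lists that follow stress and growth also differed between groups. A list of 25 environmental stress genes averaged 0.60 ± 0.45 with Pdr1-Cyc8, 1.17 ± 0.09 with Pdr1-Sin3, 0.25 ± 0.21 with Pdr1-Cyc8 in the deletion and 0.59 ± 0.24 in the deletion, relative to 0 ± 0.21 with the empty vector (log2, SD, n = 3). Of the 25 genes, 1 rose with Pdr1-Cyc8, 12 rose with Pdr1-Sin3, 5 rose and 2 fell with Pdr1-Cyc8 in the deletion, and 0 passed in the deletion, beside the shares of all probe sets given above and the 4.00% called lower with Pdr1-Cyc8 in the deletion. A list of 40 ribosome assembly genes averaged -0.79 ± 0.46, -0.81 ± 0.11, -0.06 ± 0.08 and -1.17 ± 0.84 in the same order, relative to 0 ± 0.29. With Pdr1-Cyc8 in the deletion, ribosome assembly genes averaged -0.06 and stress genes 0.25. In that group 3 of the 10 glycogen genes were called higher than with the empty vector, where 4.47% of probe sets were. The differences of the 10 genes in that comparison, which crosses the array sets, ran from -0.17 to 2.07 with a median of 0.62. The part of the stress and ribosome assembly genes in the differences of the glycogen genes was not tested.

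Within the deletion group, replicate 3 stood apart. Its ribosome assembly genes averaged -0.21, against -1.57 and -1.74 in replicates 1 and 2. It was the highest of the 3 in PGM2, GPH1 and UGP1, and the lowest in GSY1, GSY2, GLC3, GLG1, GLG2, GAC1 and GDB1. The mean of the 10 genes was 0.82, 0.96 and 0.71 in replicates 1, 2 and 3, relative to the empty vector mean.

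**Figure D5:**
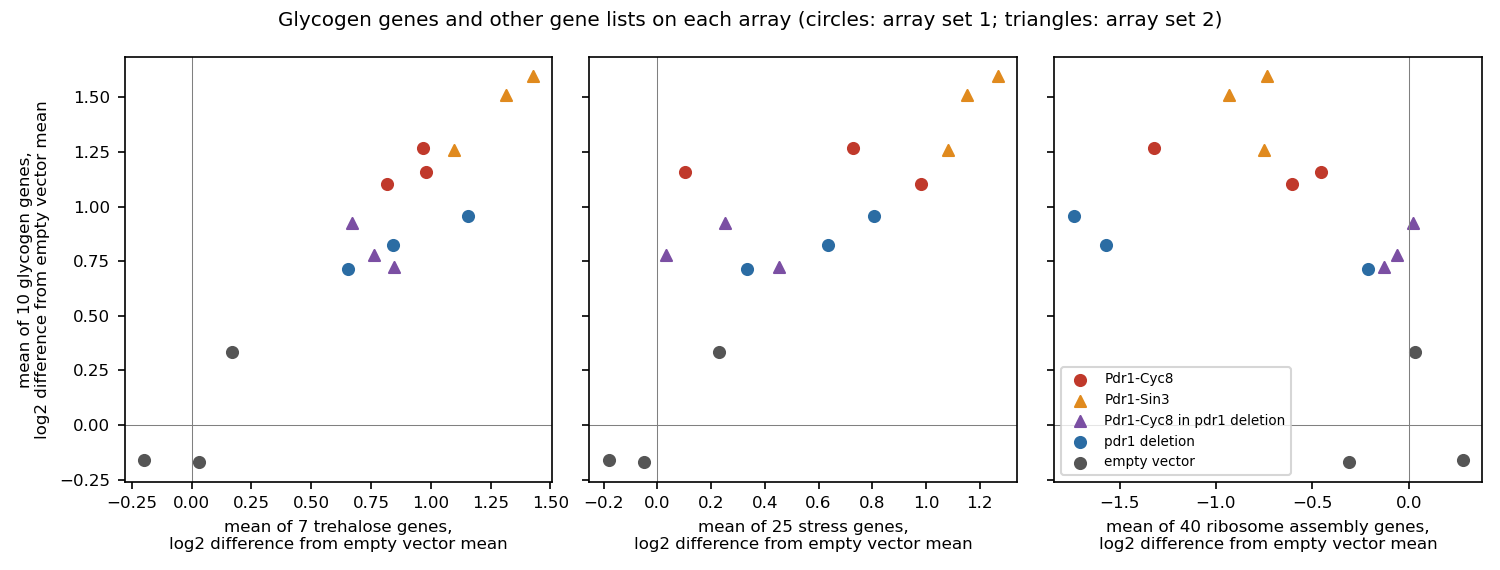
Mean of the 10 glycogen genes on each array against the means of 7 trehalose, 25 stress and 40 ribosome assembly genes, all as log2 differences from the empty vector mean. Circles are array set 1 and triangles array set 2. The 3 empty vector arrays lie between -0.17 and 0.33 on the vertical axis, and the other 12 arrays between 0.71 and 1.60.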

How the data were processed

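Transcript levels were measured on Affymetrix YG-S98 arrays, from 10 ug of total RNA per culture, per the labels' protocols. The authors' deposited table holds linear intensities, 1 per probe set and array, and the sources used here do not name the software, background correction or scaling. Per array the mean after trimming 2% at each end was 500.5 to 500.7. The table gives no detection calls. Of 9335 probe sets 60 controls were left out and 9275 tested, of which 6504 had 1 gene in the platform annotation, 328 several and 2443 none; symbols were updated through RefSeq gene IDs.

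Array medians differed 1.22-fold, so intensities were quantile normalised and turned into log2(value + 16). Folds are on that scale. All 15 arrays entered 1 limma 3.58.1 fit (R 4.3.3, 10 residual and 5.35 prior degrees of freedom) with 8 comparisons, each adjusted by Benjamini-Hochberg over 9275 probe sets. Intervals are 95%. The procedure was tested on simulated data. Groups and replicates came from the sample titles, and the number of arrays limits the precision.

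The genes named were the 10 members, the 3 target genes, called genes of fixed lists (up to 4 a list) and the 5 nearest to each synthase. The members and lists were chosen with earlier results of these data known. Replicate numbers did not pair the cultures. Tried as alternatives were median centring, no normalisation beyond that deposited, pseudocounts of 1 and 64, leaving out the dimmest 25% of probe sets, an intensity trend with robust prior, array weights, only the groups compared, only the first array set, the replicate block and each array left out. Figures used matplotlib 3.10.9 in Python 3.11.15.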

Additional observations from a re-analysis of the deposited data

Results flagged for a closer look

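The effect of Pdr1-Cyc8 differed between cells without and with PDR1 for GSY2 and GLG2, by the interaction in limma, and GSY1 also passed its threshold. The effect in the deletion minus that with PDR1 was -1.83 for GSY1, -2.41 for GSY2 and -1.32 for GLG2. The GSY1 value is a description, since its effect with PDR1 was already seen when the genes were chosen. GSY1 fell short of the threshold in 10 of 22 alternatives, and GSY2 and GLG2 in 1 of 22 each. The 7 trehalose genes had a median of -1.12 in the same interaction, so the pattern was not particular to glycogen genes. The interaction also holds any strain difference between the groups deleted for PDR1. It crosses the array sets, and the part of the sets in it cannot be told apart. Groups of 3 arrays are too small for a test of single outlying arrays.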

How the results depend on the processing

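Of 19 calls among the 10 genes, 8 held in every alternative, and none of the 19 changed sign. The 8 include GSY1 with Pdr1-Cyc8 and GLC3 with Pdr1-Sin3, the differences already seen when the genes were chosen. The counts below for Pdr1-Cyc8 and Pdr1-Sin3 against the empty vector include them as well. The 19 also hold the GSY1 interaction, given as a description for the same reason. Of 61 differences that did not pass, 10 passed in some alternative and 19 changed sign in some. The number of called genes changed by more than 1.5 times as follows. For Pdr1-Cyc8 against the empty vector, where 4 were called, it was 1 in a fit of only the groups compared or only the first array set, and 2 when the 3 arrays with the lowest ribosome assembly genes were left out, an alternative chosen after seeing the data. With array weights it was 3 in the deletion and 5 for the interaction. For Pdr1-Cyc8 in the deletion against the deletion, where 2 were called, it was 0 in a fit of only the groups compared and 0 without those 3 arrays, and the interaction count was also 0 without them. With each array left out in turn, the counts ran from 1 to 4 for Pdr1-Cyc8, 4 to 5 for Pdr1-Sin3, 0 to 5 for the deletion, 0 to 2 for Pdr1-Cyc8 in the deletion against the deletion, 3 to 3 against the empty vector, 0 to 1 against Pdr1-Sin3, 0 to 0 for Pdr1-Cyc8 against Pdr1-Sin3 and 2 to 6 for the interaction. The shares of all probe sets called in these alternatives are not given. Fits that left arrays out held fewer of them, while the fit with array weights kept them all. The cause of these changes in the counts was not tested.

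The change of GSY1 minus GSY2 in the deletion, 0.11, was -0.0781 with a pseudocount of 64 and -0.47 without the 3 arrays, and ran from -0.0789 to 0.40 with each array left out. With each array left out the other paralogue values ran from 0.58 to 1.18 (Pdr1-Cyc8), 0.69 to 1.13 (Pdr1-Sin3), 1.09 to 1.86 (Pdr1-Cyc8 in the deletion against the deletion) and 0.27 to 1.05 (against Pdr1-Sin3). The median over the probe sets of a gene was not run, since each gene has 1. Same-numbered cultures did not deviate together: over 30 such pairs the median correlation was -0.02, and 3 were above 0.1. With the replicate block, GAC1 with Pdr1-Sin3 was the 1 call of the 10 genes that was lost (1.07, adjusted p = 0.0652), and the counts stayed within 1.5 times.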
